A study of Mus musculus with 6 samples.

Results

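The genes described here encode mouse dioxygenases that need 2-oxoglutarate, iron and oxygen and act on chromatin, RNA, DNA or related proteins, together with close relatives that share their fold. They were chosen by gene symbol: 24 proteins with a JmjC domain, the 3 TET enzymes, the 8 ALKBH enzymes and Fto. All 36 symbols were found among the 24421 gene rows of the count table. The cells were Neuro2a, a mouse neuroblastoma line labelled as wild type, which received an adenovirus with a short hairpin RNA against Fam172a (shFam172a, 3 samples) or with a control hairpin (shCtrl, 3 samples), and were harvested 48 h later. Both groups therefore carry an adenovirus and a hairpin, and the labels name 1 virus per group, so effects of that 1 hairpin sequence cannot be told apart from effects of lower Fam172a. The labels do not say whether the 3 samples of a group are separate infections, so every p-value rests on the variation among these 6 samples, part or all of which may be technical. In such bulk samples fewer cells with a transcript and less transcript per cell cannot be told apart.

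These enzymes turn 2-oxoglutarate and oxygen into succinate and carbon dioxide while they hydroxylate or demethylate a substrate. JmjC lysine demethylases remove methyl groups from histone tails, TET enzymes oxidise methylcytosine in DNA, Fto and Alkbh5 remove methyl groups from adenosines in RNA, and other ALKBH enzymes repair alkylated bases or modify tRNA. Succinate, fumarate and 2-hydroxyglutarate can inhibit them, and in human cells the genes of several, KDM3A and KDM4B among them, are known to be switched on by HIF, the hypoxia-inducible factor.

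The shFam172a libraries held 21690467 to 23409319 gene counts and the shCtrl libraries 11250312 to 12820531, so low genes were measured less precisely in shCtrl. Fam172a itself stood at 9.22, 8.28 and 9.22 CPM (counts scaled to library size with TMM factors) in the shFam172a libraries and at 18.6, 19.3 and 19.5 CPM in the shCtrl libraries, which gave a log2 fold change of -1.10 with an SE of 0.0921. All 9 markers of the line's neural crest and neuronal state were measured, with a summed level of 1722 to 1772 CPM in shFam172a and 1601 to 1613 CPM in shCtrl. Of these markers 5 rose and 0 fell, among them Th, the tyrosine hydroxylase of catecholamine synthesis, at 18.7 ± 1.05 and 9.28 ± 1.30 CPM (2.01-fold, adjusted p = 1.5e-10, edgeR), and Hand2, a transcription factor of sympathetic neurons, at 321 ± 0.795 and 256 ± 3.65 CPM (log2 fold change 0.33 ± 0.0289, adjusted p = 9.1e-12). Over all genes tested 17.5% were higher and 18.6% lower. These cell-state markers moved in the same libraries as the members described below, and their part in those results was not tested. Markers of fibroblasts summed to 4.68 to 6.22 and 6.11 to 6.85 CPM, of macrophages to 1.11 to 1.16 and 0.234 to 0.943 CPM, of glia to 28.2 to 33.4 and 26.9 to 29.1 CPM, and of endothelium and epithelium to 15.2 to 16.6 and 14.6 to 15.0 CPM, shFam172a given before shCtrl. Of the 9 of those 25 markers that passed the filter, Cd68 alone was called (higher in shFam172a, adjusted p = 0.048, edgeR). It is 1 of the macrophage markers, whose sum was at most 1.16 CPM, so this call lies at a low level. Ptprc, Itgam and Aqp4 had no count in any library, a result that at the pooled depth still permits 0.0291 CPM.

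The dioxygenase genes were more often higher than lower in shFam172a. Of 34 that passed the filter on low counts, 16 rose, 1 fell and 17 were not called. Their median log2 fold change was 0.10, against 0.00 over all 12820 genes tested. Genes were called at an adjusted p under 0.05 (edgeR's quasi-likelihood test, Benjamini-Hochberg over all genes tested). The 17 called members can be set against a background of 36.1% of all genes called. Higher members made up 47.1% of those tested, where 17.5% of all genes were higher, and the lower member 2.9%, where 18.6% of all genes were lower. With offsets for transcript length and GC content 14 members were higher and 4 lower, while 1819 and 2755 of all genes were. Every shFam172a library lay above every shCtrl library for 16 members, against 22.5% of all genes, and below for 3 members, against 23.5%. The rises were small: 3 members, Kdm4b, Kdm3a and Tet2, rose at least 1.5-fold, and the others lay between log2 fold changes of 0.11 and 0.51. The members that did not pass lay between -0.29 and 0.10.

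**Figure D1:**
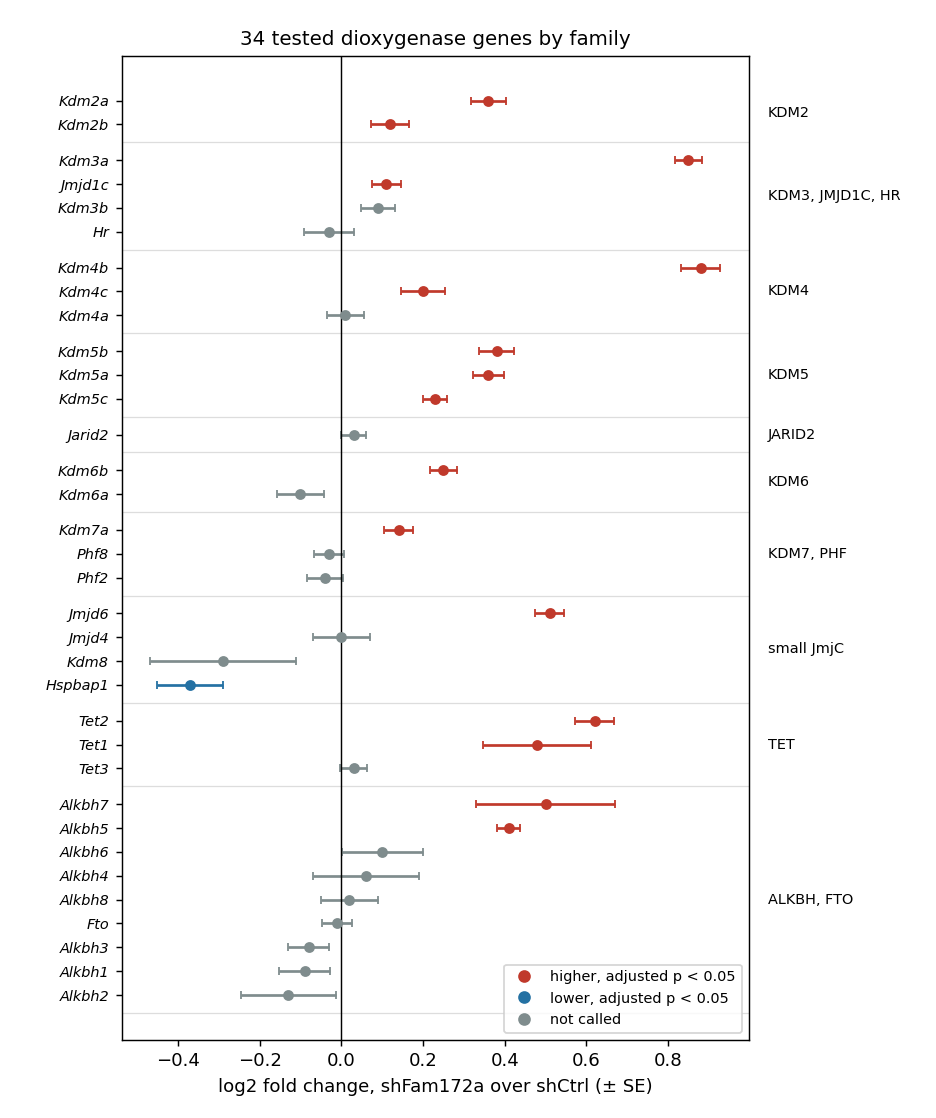
Log2 fold change (x axis, shFam172a over shCtrl, with the SE as bars) of the 34 tested genes, grouped by family down the page. Red points are the 16 genes called higher, blue is Hspbap1, the 1 called lower, and grey points did not pass; Kdm3a at 0.85 and Kdm4b at 0.88 stand farthest to the right.

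The 2 members with the largest rises both remove methyl groups from lysine 9 of histone H3, but belong to different families. Kdm3a, a demethylase of mono- and dimethylated lysine 9, lies on chromosome 6 at 71588972 to 71632990 (GRCm38, the build also called mm10, minus strand, 26 merged exons). It had 225, 220 and 223 CPM in the shFam172a libraries and 126, 124 and 120 CPM in the shCtrl libraries. The groups lay far apart relative to their spread, with means of 222 ± 2.33 and 123 ± 2.90 CPM (SD, n = 3 each) and a log2 fold change of 0.85 ± 0.0329 (SE, here and below; adjusted p = 1.3e-22, edgeR). Kdm4b, which acts on trimethylated lysine 9, lies on chromosome 17 at 56326062 to 56402870 on the plus strand, with 25 merged exons. Its levels were 89.0, 84.5 and 86.3 CPM in shFam172a and 49.4, 44.0 and 47.9 CPM in shCtrl, which gave a log2 fold change of 0.88 ± 0.0479 (adjusted p = 9.2e-18, edgeR). Neither gene shares exon sequence with another gene in the GENCODE annotation.

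Among their relatives, Jmjd1c and Kdm4c rose, Kdm3b, Hr and Kdm4a did not pass, and Kdm4d was not tested. Kdm3b, the paralog of Kdm3a, was at 88.7 ± 1.36 CPM in shFam172a and 83.5 ± 2.93 CPM in shCtrl (log2 fold change 0.09 ± 0.0411, adjusted p = 0.087, edgeR). Its 3 shFam172a libraries lay above its 3 shCtrl libraries by a narrow margin, and with upper-quartile scaling it was called (0.10, adjusted p = 0.046). The exons of Kdm3b overlap Gm26538, a long noncoding RNA gene on the opposite strand, over 24.6% of their length. Gm26538 has no row under that name in the counts, and its share in the Kdm3b counts was not tested. Jmjd1c, a larger member of the same family, rose slightly, at 162, 165 and 165 CPM in shFam172a against 157, 143 and 156 CPM in shCtrl (0.11 ± 0.0350, adjusted p = 0.012, edgeR). That call was lost without shCtrl replicate 2 (0.07, adjusted p = 0.18) and with length and GC offsets (0.06, adjusted p = 0.19). Hr, the nuclear receptor corepressor hairless, was at 33.5 ± 1.37 and 34.3 ± 1.61 CPM (-0.03, adjusted p = 0.73). In the KDM4 family Kdm4c, which shares the substrates of Kdm4b, rose to 42.6, 42.5 and 43.6 CPM in shFam172a, against 38.7, 36.1 and 37.4 CPM in shCtrl (0.20 ± 0.0547, adjusted p = 0.0039). Kdm4a was at 64.9 ± 2.17 and 64.4 ± 2.22 CPM (0.01 ± 0.0462, adjusted p = 0.87). Kdm4d was under the filter, with 4 to 10 counts per library in shFam172a and 2 or 3 in shCtrl.

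Ratios between relatives within a library do not depend on how libraries were scaled. For 5 pairs the log2 ratio of raw counts is given as a description. Each pair sets a member that was called higher over a relative that was not called, and was chosen after these values were seen. The separation of the groups therefore follows from the choice. An exact permutation test gave p = 0.1 for each pair and, for the same reason, is not used as support. Kdm3a over Kdm3b stood at 1.34, 1.29 and 1.35 in the shFam172a libraries and at 0.60, 0.61 and 0.47 in the shCtrl libraries, a difference of 0.77. Kdm4b over Kdm4a stood at 0.51, 0.34 and 0.40 against -0.35, -0.53 and -0.48, a difference of 0.87. The ratios also hold the genes' lengths, so only their difference between groups is read here. The other pairs were Kdm6b over Kdm6a with a difference of 0.35, Tet2 over Tet3 with 0.59, and Alkbh5 over Fto with 0.42.

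**Figure D2:**
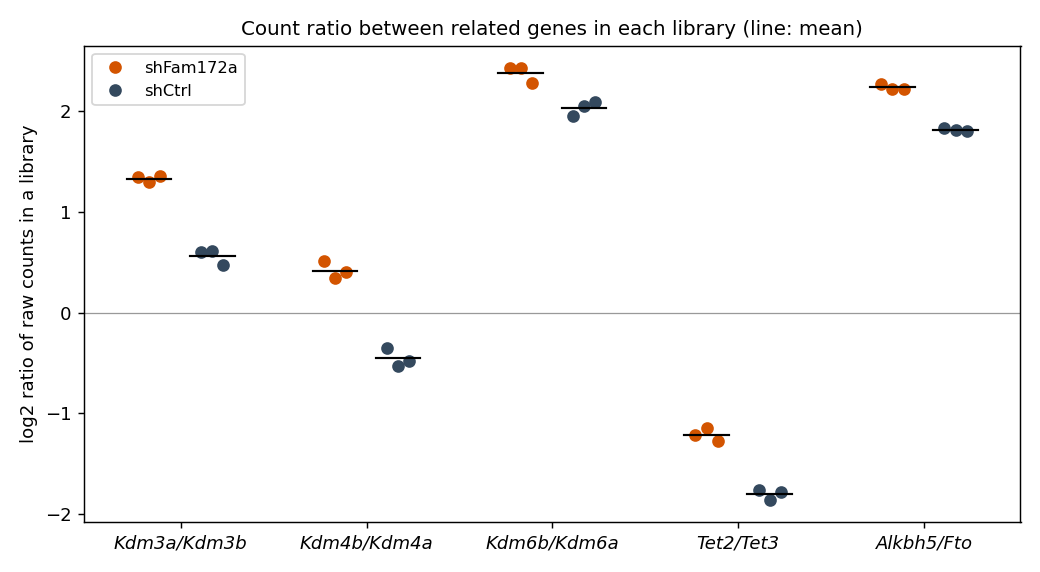
Log2 ratio of raw counts between related genes (y axis) for 5 pairs along the x axis; each point is 1 library, shFam172a left of shCtrl in each pair, and the line is the group mean. Each pair was chosen as a called over a not-called gene, and the Kdm4b to Kdm4a ratio lies above 0 in shFam172a and below 0 in shCtrl.

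Promoters are shown for the 4 members with the smallest p that have an entry in the RefSeq promoter table, and for Hspbap1, the member that fell, so that both directions can be set side by side. Each run is 300 bases on the gene's strand and ends 50 bases past an annotated start (GRCm38.p6). Capitals mark the letters ACGTG and GCGTG, the core to which HIF is known to bind, on either strand (CACGT and CACGC on the strand shown), and the letters CACGTG count on both strands. The windows lie at chr6:71632868-71633167 for Kdm3a (minus strand, 1 of its 3 annotated starts), chr3:133544341-133544640 for Tet2 (minus), chr11:116843400-116843699 for Jmjd6 (minus), chr11:60537433-60537732 for Alkbh5 (plus) and chr16:35770136-35770435 for Hspbap1 (plus).
Kdm3a: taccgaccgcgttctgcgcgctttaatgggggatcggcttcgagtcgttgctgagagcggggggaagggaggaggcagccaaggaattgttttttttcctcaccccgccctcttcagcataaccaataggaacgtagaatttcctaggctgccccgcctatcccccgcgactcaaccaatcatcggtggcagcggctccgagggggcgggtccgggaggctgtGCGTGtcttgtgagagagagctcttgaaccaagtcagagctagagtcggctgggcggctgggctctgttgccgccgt
Tet2: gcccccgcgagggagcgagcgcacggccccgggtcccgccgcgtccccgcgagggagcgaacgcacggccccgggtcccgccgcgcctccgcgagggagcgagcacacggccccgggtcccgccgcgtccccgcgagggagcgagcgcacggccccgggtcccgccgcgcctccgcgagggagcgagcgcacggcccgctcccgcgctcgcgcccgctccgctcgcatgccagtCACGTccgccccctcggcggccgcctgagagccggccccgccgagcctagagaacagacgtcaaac
Jmjd6: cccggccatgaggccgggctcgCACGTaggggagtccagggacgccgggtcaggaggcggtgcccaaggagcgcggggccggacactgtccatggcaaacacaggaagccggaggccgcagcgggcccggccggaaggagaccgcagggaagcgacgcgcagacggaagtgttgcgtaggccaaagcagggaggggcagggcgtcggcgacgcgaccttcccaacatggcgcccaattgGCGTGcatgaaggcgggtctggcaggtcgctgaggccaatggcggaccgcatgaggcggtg
Alkbh5: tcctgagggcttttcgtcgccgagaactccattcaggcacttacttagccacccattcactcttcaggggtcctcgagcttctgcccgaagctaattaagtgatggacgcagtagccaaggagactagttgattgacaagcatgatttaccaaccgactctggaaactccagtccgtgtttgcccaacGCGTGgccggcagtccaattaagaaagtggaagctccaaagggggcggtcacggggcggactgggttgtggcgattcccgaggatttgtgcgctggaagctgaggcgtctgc
Hspbap1: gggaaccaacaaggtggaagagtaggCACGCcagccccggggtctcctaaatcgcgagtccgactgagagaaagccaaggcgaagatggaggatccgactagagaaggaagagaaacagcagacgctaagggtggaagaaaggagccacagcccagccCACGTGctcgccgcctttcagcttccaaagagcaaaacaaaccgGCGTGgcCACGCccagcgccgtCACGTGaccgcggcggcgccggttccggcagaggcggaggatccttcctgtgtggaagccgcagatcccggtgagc

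The core letters were found both in members that rose and in the member that fell. In these windows Kdm3a held 1 match, starting 27 bases before the annotated start, Tet2 held 1 at 16 bases before and Alkbh5 held 1 at 62 bases before. Jmjd6 held 2 matches, at 228 and 11 bases before, and Hspbap1 held 7 when both strands of its 2 CACGTG palindromes were counted. The other 2 Kdm3a windows held none. Of 40 windows for the 30 members with an entry, 24 (60.0%) held at least 1 match. The counts were 13 of 19 windows (68.4%) for 12 members called higher and 11 of 21 (52.4%) for 18 others. Windows of the same gene can overlap, as for Kdm2b, so the same match can be counted again. Over all 32851 RefSeq windows the share was 43.8% (19.6% for ACGTG and 32.4% for GCGTG). Both motifs contain a CG pair, and the median number of CG pairs per window was 24 for members called higher, 20 for the others and 7 over all windows. A match is a description of these letters and says nothing of binding.

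All 3 measured KDM5 demethylases, which act on lysine 4 of histone H3, rose. Kdm5b, at 106, 101 and 103 CPM in shFam172a against 82.7, 75.3 and 79.9 CPM in shCtrl, had a log2 fold change of 0.38 ± 0.0417 (adjusted p = 1.8e-09, edgeR). Kdm5a was at 143, 139 and 134 against 112, 106 and 105 CPM (0.36 ± 0.0376, adjusted p = 5.5e-10). The X-linked Kdm5c, the family member with the highest level per length in both groups, was at 298, 292 and 291 against 247, 246 and 255 CPM (0.23 ± 0.0295, adjusted p = 4.3e-08). In all 3 genes the groups did not overlap, and all 3 calls were kept under each of 15 alternative settings. The Y-linked relatives Kdm5d and Uty had no count in any library. Jarid2, which resembles the KDM5 proteins but has no demethylase activity and belongs to the Polycomb complex PRC2, was at 274 ± 9.32 and 268 ± 7.27 CPM (0.03 ± 0.0312, adjusted p = 0.43), with overlapping libraries.

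Of the KDM2 enzymes, which act on lysine 36 of histone H3, Kdm2a rose to 112, 119 and 111 CPM in shFam172a, against 87.9, 84.4 and 94.7 CPM in shCtrl (0.36 ± 0.0421, adjusted p = 1.2e-08, edgeR). Kdm2b, which brings a Polycomb complex to CpG islands, was at 69.6, 69.5 and 65.6 against 61.8, 65.4 and 60.9 CPM, with a narrow gap between the groups (0.12 ± 0.0462, adjusted p = 0.038). The Kdm2b call was lost under 7 of 15 settings, among them DESeq2 (adjusted p = 0.10), length and GC offsets (0.06, adjusted p = 0.28) and the removal of shFam172a replicate 1 (adjusted p = 0.10), shFam172a replicate 2 (adjusted p = 0.11), shCtrl replicate 1 (adjusted p = 0.10) or shCtrl replicate 3 (adjusted p = 0.15). Its exons also overlap Rnf34 on the opposite strand over 5.8% of their length.

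Of the 2 KDM6 demethylases, which act on lysine 27 of histone H3, whose methylation PRC2 places, 1 rose. Kdm6b, the inducible one of the pair, reached 191, 190 and 184 CPM in shFam172a, against 159, 154 and 164 CPM in shCtrl (0.25 ± 0.0332, adjusted p = 1.6e-07, edgeR). With length and GC offsets its value was 0.12 (adjusted p = 0.0011). Kdm6a, which sits in complexes with lysine 4 methyltransferases, was at 35.5, 35.4 and 37.9 against 41.3, 37.1 and 38.4 CPM, with overlapping libraries (-0.10 ± 0.0583, adjusted p = 0.18). In the KDM7 family, whose members read methylated lysine 4 through a PHD finger, Kdm7a rose to 195, 189 and 195 CPM in shFam172a, against 187, 171 and 167 CPM in shCtrl (0.14 ± 0.0350, adjusted p = 0.0017), with 0.09 (adjusted p = 0.018) under the offsets. Phf2 was at 75.5 ± 1.19 and 77.4 ± 3.15 CPM (-0.04, adjusted p = 0.55) and Phf8 at 112 ± 0.968 and 114 ± 3.70 CPM (-0.03, adjusted p = 0.64).

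**Figure D3:**
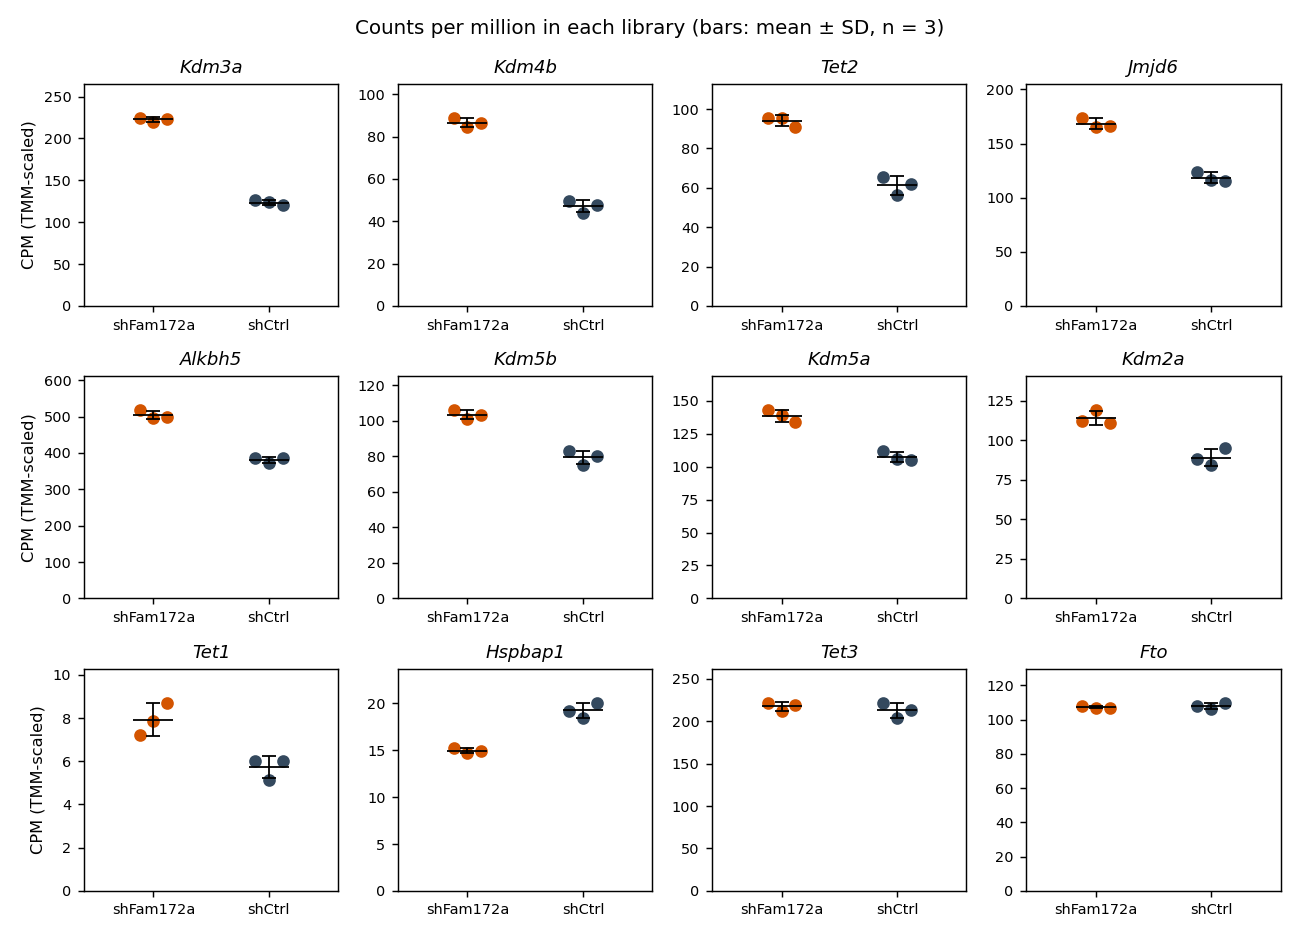
CPM scaled by TMM (y axis, from 0, each panel with its own range) in each of the 3 shFam172a libraries (left) and 3 shCtrl libraries (right) for 12 genes, with the mean and SD as bars. The groups do not overlap in the panels from Kdm3a to Hspbap1, with Hspbap1 lower in shFam172a, and they overlap for Tet3 and Fto.

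Among the small JmjC proteins 1 rose and 1 fell. Jmjd6, a lysyl hydroxylase that acts on splicing regulators, lies on chromosome 11 at 116837432 to 116843449 on the minus strand. It had 174, 165 and 166 CPM in shFam172a and 124, 116 and 115 CPM in shCtrl, a log2 fold change of 0.51 ± 0.0361 (adjusted p = 2.9e-14, edgeR). Hspbap1, a JmjC-fold protein that binds a small heat shock protein, lies on chromosome 16 at 35770375 to 35828477 on the plus strand. It fell to 15.3, 14.7 and 14.9 CPM in shFam172a, against 19.2, 18.5 and 20.1 CPM in shCtrl (-0.37 ± 0.0808, adjusted p = 4.1e-04), and this call was kept under all 15 settings. Kdm8, a low gene also known as Jmjd5, had 64 to 75 counts per library in shFam172a and 42 to 51 in shCtrl, or 3.10 ± 0.236 and 3.79 ± 0.186 CPM (-0.29 ± 0.178, adjusted p = 0.21). Its CPM groups did not overlap, but at this depth the difference did not pass. Jmjd4, which hydroxylates a translation release factor, was at 24.3 ± 0.351 and 24.2 ± 1.24 CPM (0.00 ± 0.0690, adjusted p = 0.97).

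Jmjd8, a JmjC protein of the endoplasmic reticulum, was under the filter, with 9, 10 and 8 counts in the shFam172a libraries and 3, 4 and 0 in the shCtrl libraries. In a fit without the filter Jmjd8 had a value of 1.02 (adjusted p = 0.32, edgeR) and Kdm4d of 0.48 (adjusted p = 0.68). In the GENCODE annotation 39.3% of the exon length of Jmjd8 overlaps Stub1 on the opposite strand, and Stub1 was at 31.7 ± 1.89 and 34.2 ± 3.77 CPM. Whether reads of Jmjd8 were set aside as ambiguous was not tested, so it is not known whether its low count measures its expression.

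Of the enzymes that oxidise methylcytosine, Tet2 and Tet1 rose and Tet3, the TET gene with the highest level per length, did not pass. Tet2 lies on chromosome 3 at 133463679 to 133545139 on the minus strand, with 14 merged exons. It had 95.7, 95.5 and 90.9 CPM in shFam172a and 65.5, 56.1 and 62.1 CPM in shCtrl, so that its lowest shFam172a library was well above its highest shCtrl library (0.62 ± 0.0470, adjusted p = 1.7e-13, edgeR). Tet1 was low, with 156, 183 and 194 counts in shFam172a and 70, 66 and 68 in shCtrl, or 7.23, 7.85 and 8.72 against 6.00, 5.14 and 6.02 CPM (0.48 ± 0.132, adjusted p = 0.0042). With all libraries thinned to the depth of the smallest, Tet1 was at 0.35 and no longer passed (adjusted p = 0.063). Tet3 was at 222, 212 and 219 CPM in shFam172a and 222, 204 and 213 CPM in shCtrl, with overlapping libraries (0.03 ± 0.0326, adjusted p = 0.50). With length and GC offsets the sign of Tet3 turned and it was called lower, at -0.10 with adjusted p = 0.0048.

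Of the 2 erasers of N6-methyladenosine in RNA, Alkbh5 rose and Fto did not pass. Alkbh5, a nuclear enzyme on chromosome 11 at 60536381 to 60558512 on the plus strand, had 518, 497 and 498 CPM in shFam172a and 385, 372 and 385 CPM in shCtrl. Its log2 fold change was 0.41 ± 0.0284 (adjusted p = 1.8e-14, edgeR). Fto, first known for its link to human body mass and also active on the cap-adjacent methyladenosine, was at 108, 107 and 107 CPM in shFam172a and 108, 106 and 110 CPM in shCtrl (-0.01 ± 0.0372, adjusted p = 0.80). Fto was measured with 2321 to 2495 counts per library in shFam172a and 1245 to 1358 in shCtrl.

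Of the other 7 ALKBH genes 1 was called. Alkbh7, a mitochondrial enzyme, had 116, 123 and 135 counts in shFam172a and 33, 68 and 40 in shCtrl, or 5.38, 5.28 and 6.07 against 2.83, 5.30 and 3.54 CPM (0.50 ± 0.171, adjusted p = 0.019, edgeR). Its groups overlapped in CPM, and the value rested on single libraries: it was 0.32 (adjusted p = 0.18) without shCtrl replicate 1, 0.44 (adjusted p = 0.086) without shCtrl replicate 3, 0.44 (adjusted p = 0.060) without shFam172a replicate 3 and 0.81 (adjusted p = 0.0017) without shCtrl replicate 2. DESeq2 gave adjusted p = 0.060. The DNA repair enzymes Alkbh2 and Alkbh3 were at 11.9 ± 0.917 and 13.0 ± 3.17 CPM (-0.13, adjusted p = 0.41) and at 47.7 ± 0.991 and 50.4 ± 1.30 CPM (-0.08, adjusted p = 0.21). The exons of Alkbh2 overlap Usp30 on the opposite strand over 29.5% of their length, and without shCtrl replicate 1 its sign turned (0.07). Alkbh1, which acts on tRNA and in mitochondria, was at 30.7 ± 1.52 and 32.8 ± 1.15 CPM (-0.09, adjusted p = 0.25). Alkbh8, which builds a wobble-base modification in tRNA, was at 30.0 ± 1.72 and 29.7 ± 3.43 CPM (0.02, adjusted p = 0.87). Alkbh4 (0.06 ± 0.129) and Alkbh6 (0.10 ± 0.0995) did not pass either, with adjusted p of 0.75 and 0.46.

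Levels per kb of exon, in CPM over the merged exon length, ranked the members in a similar order in both groups. Alkbh5 came first, at 84.3 ± 1.96 in shFam172a and 63.6 ± 1.26 in shCtrl, followed by Kdm5c at 41.3 ± 0.532 and 35.1 ± 0.665. Jmjd6 was next in shFam172a, at 35.8 ± 0.961, while in shCtrl it was at 25.2 ± 1.07 and stood below Jarid2, at 27.6 ± 0.748. In shFam172a Jarid2 (28.3 ± 0.959) and Kdm6b (27.1 ± 0.564) followed with overlapping ranges of mean ± SD, then Kdm3a with 27.3 in its highest library, while in shCtrl Kdm3a was at 15.0 ± 0.352, below Kdm7a at 17.4 ± 1.06 and Alkbh3 at 16.0 ± 0.413. Within families, Kdm5c was above Kdm5a and Kdm5b, Kdm6b above Kdm6a, and Tet3 (13.0 ± 0.311 and 12.8 ± 0.530) above Tet2 (5.57 ± 0.163 and 3.63 ± 0.283) and Tet1 (0.513 ± 0.0485 and 0.370 ± 0.0326). Kdm4d was under 0.2 in both group means. Jmjd8 also had a value under 0.2, but it is given no rank because of its overlap with Stub1. The merged exons come from GENCODE and are longer than any 1 transcript for some genes, so these levels are approximate.

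**Figure D4:**
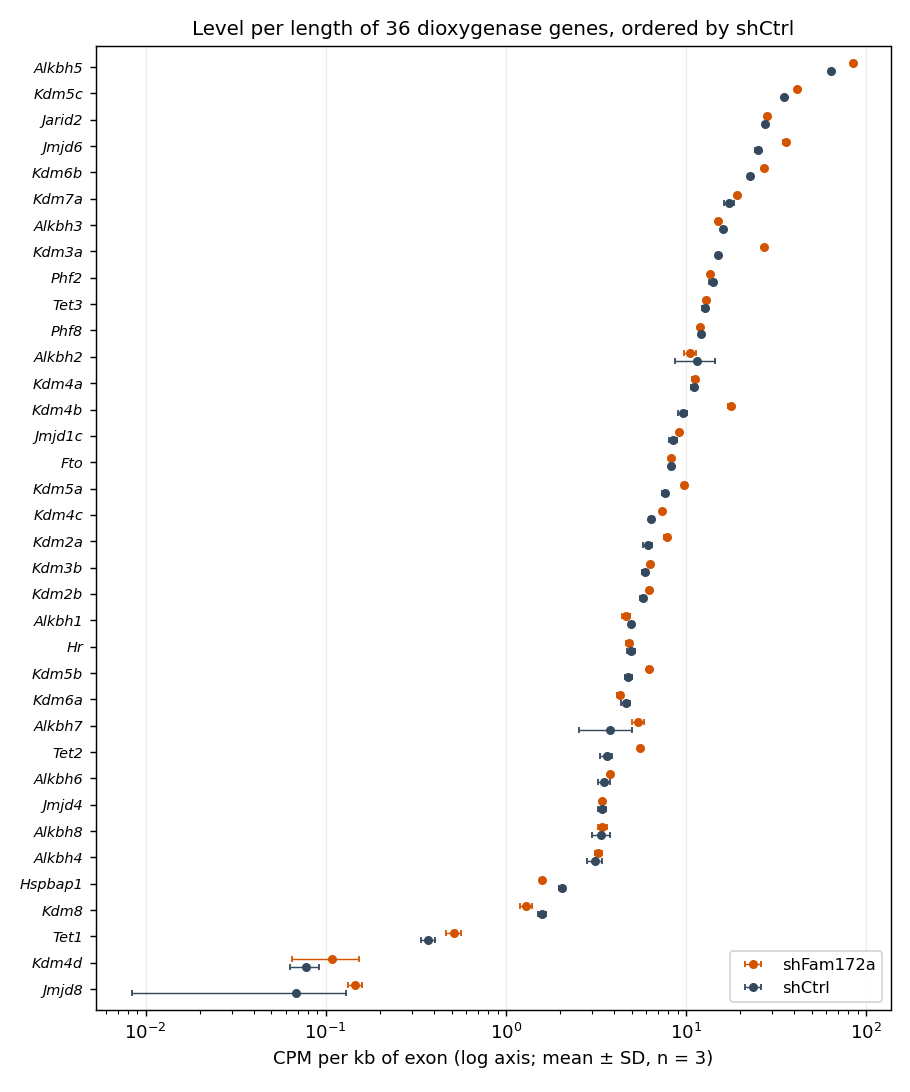
Mean CPM per kb of merged exon (x axis, log scale, with the SD of 3 libraries as bars) of the 36 genes, ordered down the page by their shCtrl level, with shFam172a drawn above shCtrl for each gene. Alkbh5 is highest at 84.3 and 63.6. Jmjd8, drawn last, overlaps Stub1 over 39.3% of its exon length, and whether its low count measures its expression was not tested.

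The members called higher had longer transcripts and higher CPM than the others. Their longest transcripts had a median of 6551 bases and their mean levels a median of 112 CPM, against 4959 bases and 35.8 CPM for the other 18 tested members and 3356 bases and 32.8 CPM over all genes tested. With the length and GC offsets Kdm2b and Jmjd1c were no longer called, and Hr (-0.15, adjusted p = 0.046), Phf2 (-0.13, adjusted p = 0.016) and Tet3 joined Hspbap1 among the lower. Without the offsets 2241 of all genes were higher and 2386 lower. Kdm3a and Kdm4b were at 0.84 and 0.80 with the offsets, Tet2 at 0.55, Jmjd6 at 0.46 and Alkbh5 at 0.36. With counts thinned to 11250312 per library, 14 members were higher and 1 lower, while 2044 and 2106 of the 12344 genes tested were.

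**Figure D5:**
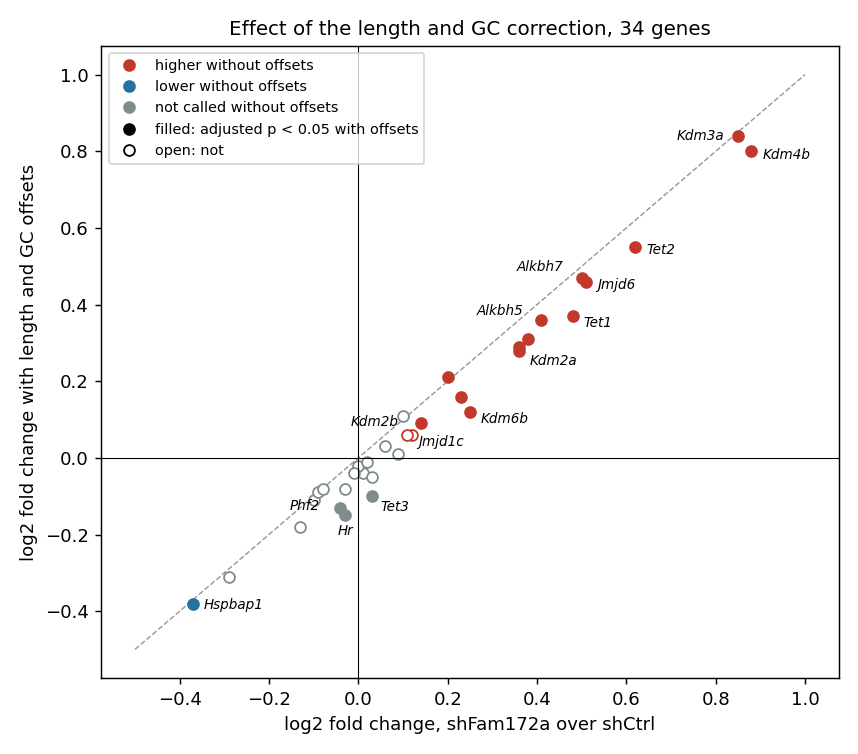
Log2 fold change of the 34 tested genes with offsets for transcript length and GC content (y axis) against the value without them (x axis); the dashed line marks equal values and filled points pass the test with the offsets. Most points lie below the line, the 5 genes with the largest values without the offsets stay above 0.4, and Tet3, Phf2 and Hr become filled below 0.

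Other dioxygenases of the same cofactor class outside this set also rose more often than they fell: 13 of 25 tested were higher and 3 lower (median 0.16). Over all genes tested 17.5% were higher and 18.6% lower. The largest were those of collagen and of oxygen sensing, with P4ha2, a collagen prolyl hydroxylase, at 254 ± 7.52 and 108 ± 6.16 CPM (1.23 ± 0.0365, adjusted p = 4.8e-26, edgeR). Egln1, the prolyl hydroxylase that marks HIF for degradation, was at 317 ± 2.45 and 157 ± 4.71 CPM (1.02 ± 0.0313, adjusted p = 1.3e-25). The 3 lower genes were 2410016O06Rik, listed by RefSeq as Riox1, a JmjC ribosomal hydroxylase (-0.31, adjusted p = 0.0033), Ogfod1, a prolyl hydroxylase of a ribosomal protein (-0.23, adjusted p = 0.0058), and Tyw5, a tRNA hydroxylase (-0.30, adjusted p = 0.0065). In a list of 20 hypoxia response genes, which shares 2 genes with the previous list, 18 were higher and 0 lower, with a median of 0.91. Whether the rises of the members are linked to those of this list was not tested.

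Genes that make or use 2-oxoglutarate, succinate, fumarate or 2-hydroxyglutarate were more often lower than higher. Of 25 tested, 13 were lower, 5 higher and 7 not called, and the median was -0.10, where 18.6% of all genes were lower and 17.5% higher. Suclg2, a subunit of succinyl-CoA synthetase, was at 96.4 ± 1.33 CPM in shFam172a and 123 ± 5.14 CPM in shCtrl (-0.36 ± 0.0383, adjusted p = 1.4e-09, edgeR). Ogdh, the dehydrogenase that consumes 2-oxoglutarate in the tricarboxylic acid cycle, was at 173 ± 3.92 and 208 ± 5.87 CPM (-0.27 ± 0.0322), and Sdhb, a subunit of succinate dehydrogenase, at 270 ± 4.19 and 316 ± 6.33 CPM (-0.23 ± 0.0292). Among those that rose, Gls2, a glutaminase, was at 30.5 ± 1.56 and 19.7 ± 0.792 CPM (0.63 ± 0.0705), and D2hgdh, which oxidises 2-hydroxyglutarate back to 2-oxoglutarate, at 5.28 ± 0.409 and 3.30 ± 0.404 CPM (0.68 ± 0.165, adjusted p = 0.0012).

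Histone lysine methyltransferases, which place the marks that many members remove, also rose more often than they fell. Of 26 histone lysine methyltransferases 11 rose, 4 fell and 11 did not pass (median 0.03), where 17.5% of all genes were higher and 18.6% lower. A higher share above that of all genes was thus not limited to the dioxygenases. Kmt2e (0.31 ± 0.0354), Kmt2c (0.22 ± 0.0320) and Kmt2d (0.22 ± 0.0316), members of the lysine 4 methyltransferase family, were higher, and Setdb2 (-0.33 ± 0.0746), Suv39h1 (-0.19 ± 0.0454) and Suv39h2 (-0.24 ± 0.0663), of the lysine 9 group, were lower. With length and GC offsets Kmt2d was no longer called (-0.01, adjusted p = 0.91, edgeR), and Kmt2c was at 0.09 (adjusted p = 0.012). Of 17 partners in PRC2 and in the Polycomb complex of Kdm2b, 6 fell and 1 rose (median -0.07), with Yaf2 at -0.27 ± 0.0391 and Rbbp4, a histone chaperone, at -0.18 ± 0.0279. Of 13 genes of the flavin-dependent demethylases and their CoREST partners, 5 rose and 2 fell (median 0.03), with Rcor2 at 0.37 ± 0.0355.

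For DNA methylation, 5 of 15 tested genes rose and 2 fell (median 0.06). The shares over all genes, here and for RNA methylation below, were 17.5% higher and 18.6% lower. Dnmt1, the maintenance methyltransferase, was at 338 ± 1.49 CPM in shFam172a and 406 ± 20.8 CPM in shCtrl (-0.26 ± 0.0307, adjusted p = 9.9e-09, edgeR), and Dnmt3a, a methyltransferase of unmethylated sites, at 164 ± 2.88 and 144 ± 2.81 CPM (0.19 ± 0.0334, adjusted p = 2.7e-05), a call that was lost with length and GC offsets (0.07, adjusted p = 0.076). Ogt, the O-GlcNAc transferase that binds TET proteins, was at 261 ± 4.51 and 183 ± 8.14 CPM (0.51 ± 0.0325, adjusted p = 1.1e-15), and Cxxc4, which binds Tet2, was at 51.7 ± 2.75 and 66.8 ± 2.44 CPM (-0.37 ± 0.0490, adjusted p = 1.1e-07). Of 21 tested genes that write, read or cap RNA methylation, 5 rose and 5 fell (median 0.00), all by small amounts. Mettl14, a subunit of the methyltransferase whose mark Alkbh5 and Fto remove, was at 40.1 ± 1.21 and 46.0 ± 2.11 CPM (-0.20 ± 0.0541, adjusted p = 0.0036), and its partner Wtap at 104 ± 3.46 and 115 ± 3.01 CPM (-0.14 ± 0.0384, adjusted p = 0.0032). Among the genes of this list that rose were Rbm15b (0.23 ± 0.0673, adjusted p = 0.0074, edgeR), Zc3h13 (0.14 ± 0.0392, adjusted p = 0.0045) and Ythdf3 (0.11 ± 0.0356, adjusted p = 0.018). With length and GC offsets Rbm15b (0.13, adjusted p = 0.14) and Zc3h13 (0.08, adjusted p = 0.087) were no longer called.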

How the data were processed

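RNA was taken from Neuro2a cells with TRIzol and sequenced in read pairs on a NovaSeq instrument, per the labels' protocols. The authors deposited raw, whole-number counts for each gene symbol. Per the submitters' processing notes, HISAT2 2.0.5, HTSeq and the mm10 build were used. Which annotation and which strand setting went into counting is not given in the sources used here. Rows that name no gene held 35.0% to 37.6% of all counts in shFam172a and 33.5% to 34.5% in shCtrl and were left out.

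Genes were filtered with filterByExpr by group, scaled by TMM and tested across all 12820 genes with edgeR 4.0.16 (robust glmQLFit, glmQLFTest) under R 4.3.3, with no covariate. Fold changes are log2 values of shFam172a over shCtrl, each with an SE equal to its size over the square root of F. The script was checked on simulated counts. Gene length, GC content and exon overlaps came from GENCODE vM21 (GRCm38), matched for 24046 of 24421 symbols, and promoters from RefSeq. Alternatives used DESeq2 1.42.0 and limma 3.58.1 (voom). Length and GC offsets were smooth fits (mgcv) to each library over the 12754 tested genes with both values. All 36 members are reported. The genes named from each other list are among the called ones with the smallest p, up to 3 per direction. Their mean is at least 2 CPM. Named besides these are Cd68, whose mean is lower, and genes with no count in any library. The members and lists were chosen with earlier results of these data known.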

Additional observations from a re-analysis of the deposited data

How the results depend on the processing

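Under 15 other settings of scaling, test, filter, depth, length and GC, replicate block or left-out library, 14 to 17 members were higher. Among the 11018 to 18128 genes tested in these settings, 1711 to 2486 were higher and 1821 to 2755 lower. The number of lower members was 1 under each setting except length and GC offsets, where it was 4, and the cause was not tested. Of the 17 called members, 13 kept their call under all 15 settings; the others were Kdm2b, Jmjd1c, Tet1 and Alkbh7. Replicate numbers did not pair the libraries, with correlations of same-numbered deviations of -0.010 to -0.004, and with a replicate block 16 members were higher and 1 lower, as were 2150 and 2318 of all genes.

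Signs turned only for members that had not passed. With length and GC offsets Kdm4a was at -0.04, Jarid2 at -0.05, Jmjd4 at -0.02, Tet3 at -0.10 and Alkbh8 at -0.0096, and with thinned counts Alkbh8 was at -0.0084. With each library left out in turn, Hr ranged over -0.06 to 0.0070, Kdm4a -0.0067 to 0.04, Jmjd4 -0.03 to 0.04, Alkbh8 -0.08 to 0.08, Alkbh2 -0.27 to 0.07, Tet3 -0.0003 to 0.06, Phf8 -0.04 to 0.0021 and Fto -0.03 to 0.0016. Depth in shCtrl limits the low members Kdm8, Alkbh7, Alkbh4 and Tet1 most.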
